A study of Sus scrofa with 18 samples.

Results

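The family of miR-25, miR-32, miR-92 and miR-363 is a set of microRNAs (miRNAs) that share their seed, the bases near the 5′ end that pair with target messages. Its members were taken by name from the table of mature miRNAs in pig backfat, the subcutaneous fat layer of the back. Of the 5 names searched, 4 had reads: miR-92a, miR-92b-3p, miR-32 and miR-363, named ssc-miR-92a, ssc-miR-92b-3p, ssc-miR-32 and ssc-miR-363 in the pig table. They made up 4 of the 240 mature miRNAs, 5 of the 210 precursors and 375 of the 16636 distinct read sequences in the table. miR-25 was not analysed here. All 4 members passed the low-count filter that left 221 miRNAs for testing.

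The libraries came from 18 Italian Large White pigs kept on 1 diet in 1 environment and slaughtered at 150 to 160 kg. The high backfat class held 9 pigs, 5 castrated males and 4 females, aged 241 ± 4.47 days (SD). The low backfat class held 9 pigs, 4 castrated males and 5 females, aged 243 ± 6.04 days (SD). Each pig gave 1 small RNA library, and backfat deposition was labelled only as high or low.

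A mature miRNA guides an Argonaute protein to messages whose untranslated regions pair with its seed, and those messages are then repressed. The family is known from human and mouse work for targets such as BCL2L11 and FBXW7. miR-92a is one of the products of the miR-17 to miR-92a cluster, which is known for promoting cell growth, and in mouse endothelial cells miR-92a restrains vessel growth. miR-363 belongs to the related miR-106a to miR-363 cluster, whereas miR-32 lies in an intron of TMEM245 in mammals. In the RefSeq annotation of Sscrofa11.1, which was used for names and neighbours only, MIR32 lay inside TMEM245 and had 0 other miRNA genes within 10000 bases. MIR92B also had 0 miRNA genes in that window and lay near THBS3, MUC1 and TRIM46. miR-92a had 2 genes: MIR92A-1 beside MIR17, MIR18A, MIR19A, MIR20A and MIR19B-1, and MIR92A-2 beside MIR363-1, MIR19B-2, MIR20B-1, MIR18B and MIR106A.

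The mature sequences are shown because they define the family and because the members differ outside the seed. They are written 5′ to 3′ with bases 2 to 8, the seed, in capitals, and positions below count from 1 at the 5′ end of the mature sequence.
miR-92a: tATTGCACttgtcccggcctgt
miR-92b-3p: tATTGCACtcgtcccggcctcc
miR-32: tATTGCACattactaagttgc
miR-363: aATTGCACggtatccatctgtaa
The same 7 seed bases stood in all 4, and among the exact mature forms of the table in no other miRNA. A message pairs with them through GTGCAAT. miR-92a and miR-92b-3p were identical at 19 of 22 bases, with T10C, G21C and T22C as their differences (miR-92a first). miR-32 and miR-363 differed from each other at 9 of 21 compared bases, and from miR-92a at 10 of 21 and 12 of 22 bases. GC content was 54.5% in miR-92a, 63.6% in miR-92b-3p, 33.3% in miR-32 and 39.1% in miR-363. Reads listed under more than 1 mature miRNA were rare: miR-92a and miR-92b-3p shared 3 forms with 18 reads, 0.000527% of the reads of miR-92a and 0.0223% of those of miR-92b-3p. miR-32 and miR-363 shared none.

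The libraries held between 9601510 and 34588252 reads of distinct sequences (median 20674716). The labels' library codes fell into 4 runs of consecutive codes, U966 to U969 (2 high, 2 low), U074 to U077 (2 high, 2 low), U134 to U139 (4 high, 2 low) and AC485 to AC488 (1 high, 3 low). A run here is taken from the codes alone, and whether it matches a sequencing batch is not known. Levels are CPM, counts scaled to a common library total with TMM factors. Each read is 1 whole small RNA, so levels of different miRNAs were compared without scaling by length. How well each sequence was recovered in library preparation was not measured. Of the marker lists, miR-143, miR-145, miR-199a and miR-214, which mark mesenchymal and fat tissue cells, summed to between 123723 and 246310 CPM in high libraries and between 172102 and 252106 CPM in low libraries. Of the 7 tested miRNAs of that list, 1 had a positive fold change in high backfat. edgeR called 2 of the 7 lower in high backfat, against 5 of all 221 (2.26%). They were miR-199a-3p at 5678 ± 1090 CPM in high and 8040 ± 1290 CPM in low libraries (log2 −0.50 ± 0.13, edgeR adjusted p = 0.0486), and miR-199a-5p (−0.38 ± 0.09, edgeR adjusted p = 0.0486). Both calls stood close to the threshold. Under 31 alternatives the fold changes stayed negative, but miR-199a-3p was called in 11 and miR-199a-5p in 13. Both were lost with age, with limma, without run AC485 to AC488 and without any of high replicates 1, 3 and 9 and low replicates 5, 6 and 9, among others. Their part in the results was not tested. High replicate 6 stood apart: across 174 miRNAs of at least 10 CPM, its departure from the median library ran with GC content (Spearman rho 0.80), against −0.35 to 0.38 in the other 17 libraries. This measure was chosen after seeing the data, and its part in the results was not tested. High replicates 6 and 8, both of run U134 to U139, had the 2 highest levels of both miR-92a and miR-92b-3p. Results are therefore also given without those libraries.

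miR-92a carried nearly all reads of the family. It averaged 8157 ± 2249 CPM (SD, n = 18), ranked 20 of 221 in abundance and made up 95.9 ± 1.14% of the family's reads. miR-92b-3p averaged 200.5 ± 90.9 CPM (rank 91), miR-32 averaged 71.7 ± 19.2 CPM (rank 122) and miR-363 averaged 66.9 ± 17.7 CPM, somewhat lower in rank. The lowest library still held 38687 reads of miR-92a, 655 of miR-92b-3p, 440 of miR-32 and 593 of miR-363.

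The first steps of this order held in each library when all forms were counted, and the last did not. miR-92a was above miR-92b-3p in 18 of 18 libraries, 43.0-fold on the log2 mean (log2 difference 5.42 ± 0.45 SD). The paired sign-flip permutation test over the 3 neighbouring steps gave an adjusted p of 1.5e-05, from the smallest p that the resamples can give. miR-92b-3p was above miR-32 in 18 of 18 libraries by a mean log2 of 1.43 ± 0.98 (2.70-fold, adjusted p = 1.5e-05, permutation). miR-32 was above miR-363 in 11 of 18 libraries by a log2 of 0.07 ± 0.60, which is less than the spread between libraries (adjusted p = 0.71, permutation). The steps depended on which forms were counted. With exact mature matches alone, miR-92b-3p was above miR-32 in 17 of 18 libraries by a log2 of 1.26 ± 0.97 (adjusted p = 3e-05, permutation). In the same setting, miR-32 was above miR-363 in 18 of 18 libraries by a log2 of 2.09 ± 0.58 (adjusted p = 1.5e-05, permutation). miR-363 was seldom read in its annotated length, as described with its forms.

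**Figure D1:**
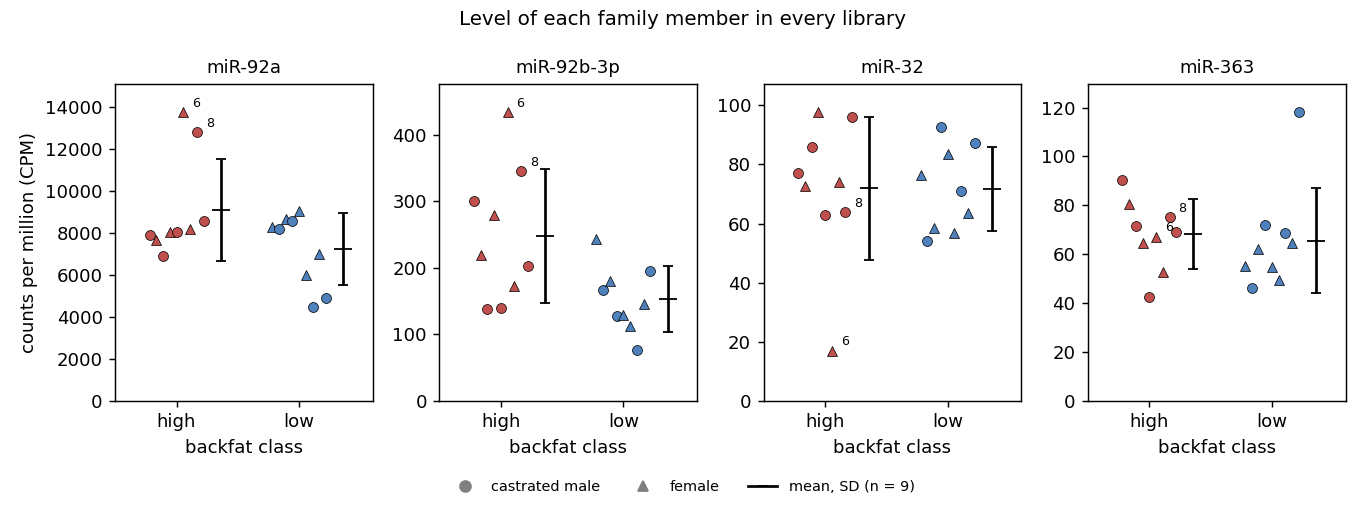
Level of the 4 members in each of the 18 libraries, in CPM on axes that start at 0, with high backfat left of low backfat; circles are castrated males, triangles are females, and bars give mean ± SD (n = 9 each). High replicates 6 and 8, marked by number, have the highest miR-92a and miR-92b-3p, and high replicate 6 has the lowest miR-32 at 17.02 CPM.

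miR-92b-3p had the largest difference between backfat classes in the family. Its levels ran between 138.1 and 433.8 CPM with a median of 219.7 in high libraries, and between 75.8 and 243.8 CPM with a median of 145.6 in low libraries. The classes overlapped, and 7 of 9 high libraries lay above the low median. The means were 247.9 ± 100.2 CPM in high and 153 ± 49.7 CPM in low backfat (SD, n = 9 each). The fitted log2 difference was 0.72 ± 0.24 (SE). It did not pass the threshold in edgeR's quasi-likelihood test (unadjusted p = 0.00652, Benjamini-Hochberg adjusted p = 0.0758 over 221 miRNAs). DESeq2's Wald test gave the same direction and an adjusted p of 0.0308, where 22 of 234 miRNAs (9.40%) were called. Leaving out each library in turn gave log2 values between 0.60 and 0.81, with adjusted p between 0.0545 and 0.166 in edgeR. Without high replicates 6 and 8 it was 0.46 ± 0.22 (edgeR adjusted p = 0.248), where edgeR called 4 of 221 miRNAs (1.81%) and 0 of 4 members. The mean of high lay above that of low in all 4 runs, by a log2 of 0.35 in U966 to U969, 0.37 in U074 to U077, 1.02 in U134 to U139 and 0.65 in AC485 to AC488, the last with 1 high library. Run U134 to U139 holds high replicates 6 and 8. In U966 to U969 low replicate 1 (243.8 CPM) lay above high replicate 2 (219.7 CPM). In U074 to U077 low replicate 3 (179.9 CPM) lay above high replicate 3 (138.1 CPM). In the other runs each high library lay above each low library. A fit with the run as a term gave 0.72 ± 0.27 (edgeR adjusted p = 0.184).

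miR-92a ran between 6887 and 13723 CPM with a median of 8053 in high libraries, and between 4474 and 9044 CPM with a median of 8195 in low libraries. The medians were close, and 3 of 9 high libraries lay above the low median. The means were 9082 ± 2419 CPM in high and 7232 ± 1724 CPM in low backfat (SD). The highest libraries were the 2 high libraries named above, and the lowest were low replicates 7, 9 and 6, at 4474, 4897 and 5980 CPM. The log2 fold change was 0.35 ± 0.16 (SE), with an unadjusted p of 0.0434 and an adjusted p of 0.187 in edgeR. It was 0.15 ± 0.13 without high replicates 6 and 8. Within runs the difference was −0.08 in U966 to U969, −0.21 in U074 to U077, 0.49 in U134 to U139 and 0.68 in AC485 to AC488, and 0.23 ± 0.17 with the run as a term. With run AC485 to AC488 left out it was 0.17 ± 0.16 (edgeR adjusted p = 0.662).

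miR-32 and miR-363 lay at nearly the same level in both classes. miR-32 ran between 17.02 and 97.6 CPM with a median of 74.1 in high libraries, and between 54 and 92.6 CPM with a median of 71.0 in low libraries (log2 fold change −0.02 ± 0.23, edgeR adjusted p = 0.938). miR-363 ran between 42.4 and 90.3 CPM with a median of 69.1 in high libraries, and between 46.4 and 118 CPM with a median of 62.0 in low libraries (0.04 ± 0.17, edgeR adjusted p = 0.886). Neither sign held under every alternative. Within runs miR-32 differed by 0.22, 0.32, −0.54 and 0.39 and miR-363 by 0.75, 0.03, 0.16 and −0.22, for U966 to U969, U074 to U077, U134 to U139 and AC485 to AC488 in that order. In bulk tissue, fewer cells of a type and less RNA per cell cannot be told apart.

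In all, 0 of 4 members were called between high and low backfat by edgeR, against 8 of 221 miRNAs (3.62%), of which 3 rose (1.36%) and 5 fell (2.26%). At an unadjusted p under 0.05, 2 of 4 members stood against 54 of 221 (24.4%). The classes overlapped for all 4 members, and were apart for 1 of 221 miRNAs (0.452%). The median log2 fold change was 0.20 over the members and −0.03 over all 221. The log2 ratio of miR-92b-3p to miR-92a averaged −5.26 ± 0.38 in high and −5.59 ± 0.47 in low libraries, a difference within the spread between pigs (exact two-sided permutation p = 0.119).

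**Figure D2:**
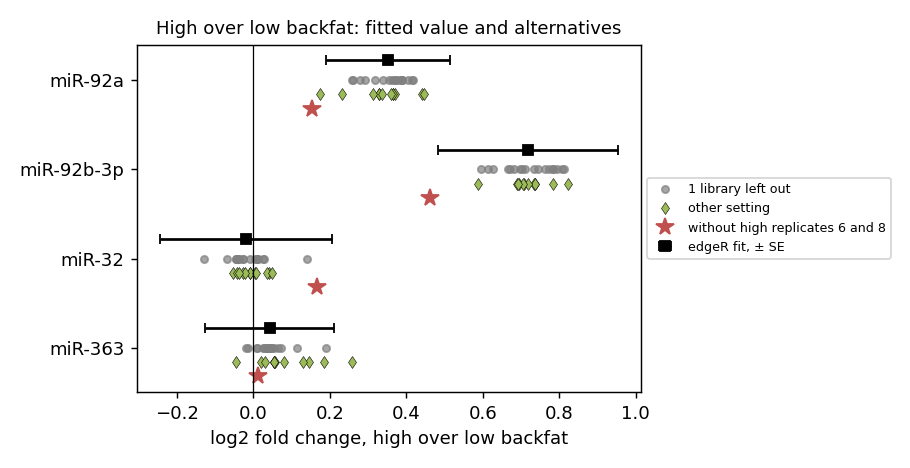
Log2 fold change of high over low backfat for each member: squares are the edgeR fit with its SE, grey circles leave out 1 library each, diamonds are other settings, and stars leave out high replicates 6 and 8. miR-92b-3p stays above 0 throughout, at 0.46 to 0.82, while miR-32 and miR-363 lie on both sides of 0.

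No member was called between castrated males and females. In castrated males against females, with class as a covariate, 0 of 4 members and 0 of 221 miRNAs (0%) were called by edgeR, and 17 of 221 (7.69%) had an unadjusted p under 0.05, none of them a member. miR-363 was at 72.6 ± 22.4 CPM in castrated males and 61.2 ± 9.54 CPM in females (log2 0.24 ± 0.17, edgeR adjusted p = 0.628). miR-32 was at 76.7 ± 14.7 CPM in castrated males and 66.7 ± 22.5 CPM in females (0.20 ± 0.23, edgeR adjusted p = 0.778). miR-92a averaged 7809 ± 2411 CPM in castrated males and 8505 ± 2159 CPM in females, and miR-92b-3p averaged 187.9 ± 86.0 CPM in castrated males and 213 ± 99.0 CPM in females (SD, n = 9 each). With run added to the model the log2 values were 0.10 for miR-363, 0.11 for miR-32, −0.06 for miR-92a and −0.25 for miR-92b-3p.

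The class difference of miR-92b-3p was positive in each sex, and its size rested on single libraries. In castrated males it averaged 225.1 ± 94.4 CPM in the 5 high pigs, against 141.5 ± 51.7 CPM in the 4 low pigs (log2 0.67 ± 0.34, edgeR adjusted p = 0.262). In females it averaged 276.4 ± 113.8 CPM in the 4 high pigs, against 162.3 ± 51.8 CPM in the 5 low pigs (log2 0.77 ± 0.34, edgeR adjusted p = 0.460). Without high replicate 6, a female, the value in females was 0.45 ± 0.34, and with age as a covariate it was 0.39 ± 0.34. Without high replicate 8, a castrated male, the value in castrated males was 0.44 ± 0.34. miR-92a differed by 0.44 ± 0.24 in castrated males, and by 0.25 ± 0.23 without high replicate 8. In females it differed by 0.27 ± 0.23, and by 0.0040 ± 0.24 without high replicate 6. edgeR called 0 of 4 members in castrated males (9 of 221 miRNAs, 4.07%), 0 in females (0 of 221, 0%) and 0 for the difference between the sexes (0 of 221, 0%). At an unadjusted p under 0.05 miR-92b-3p was the only member in females (20 of 221, 9.05%), and no member stood in castrated males (49 of 221, 22.2%) or for the difference (25 of 221, 11.3%). The difference was −0.10 ± 0.48 for miR-92b-3p and 0.17 ± 0.33 for miR-92a, and neither sign held with each library left out in turn. Among the marker lists, miRNAs of skeletal muscle moved with class in castrated males: miR-133a-3p, which is made in muscle, was at 23.7 ± 4.86 CPM in high and 105 ± 44.0 CPM in low castrated males (log2 −2.14 ± 0.39, edgeR adjusted p = 0.00423). Of the 4 tested miRNAs of that list, 2 were called lower in high castrated males, and 0 had a positive fold change. Over both sexes the list summed to between 48 and 129.4 CPM in high and between 78.4 and 209.8 CPM in low libraries. Its part in the values of the family was not tested.

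The partners that lie beside miR-92a and miR-363 were measured too. Of the 10 partner names, 7 were represented among the tested miRNAs, with 8 mature forms. edgeR called 0 of 8 between classes, against 8 of all 221 miRNAs (3.62%). miR-18b had 102 reads in all and did not pass the filter, and miR-106b and miR-93 were not analysed here. miR-19b, which with miR-19a carries the seed held mainly responsible for the growth effect of the cluster in mice, ran between 69.7 and 212.3 CPM with a median of 171.8 in high and between 133.6 and 507.6 CPM with a median of 209 in low libraries (log2 −0.63 ± 0.23, edgeR adjusted p = 0.119). miR-19a gave −0.66 ± 0.29 (edgeR adjusted p = 0.167). The other 6 lay on both sides of 0, between −0.21 for miR-18a and 0.14 for miR-17-3p. In those 6, miR-20b and miR-106a had means below 2 CPM and shared 8.63% and 3.65% of their reads with miR-17-5p.

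miRNAs of 1 cluster were not read at 1 level. miR-92a and miR-19b have a gene in each of the clusters of miR-17 and miR-363, so their reads need not come from 1 transcript. In low libraries miR-92a had a median of 8195 CPM, while miR-17-5p had 91.5, miR-20a 76.2, miR-19b 209 and miR-18a 16.2 CPM. Across the 18 libraries miR-92a ran against the other main products of its cluster, with Spearman rho between −0.57 for miR-18a and −0.38 for miR-19b, and with miR-17-3p (rho 0.51). Without high replicates 6 and 8 these were −0.44 and −0.17, and 0.53 for miR-17-3p. miR-363, in contrast, had miR-20b of its own cluster as the most similar of 217 miRNAs (rho 0.66, and 0.58 without the 2 libraries), and miR-106a as the 7th most similar (rho 0.47). miR-20b averaged 1.85 CPM, so its values rest on as few as 14 reads. These relations are descriptions over 18 libraries that share scaling, and carry no test.

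miR-92b-3p ran against miR-19b more strongly than against any other of 217 miRNAs (rho −0.86), with miR-19a next (rho −0.81). The values were −0.81 and −0.75 without high replicates 6 and 8. miR-92b-3p has a GC content of 63.6%, and miR-19b and miR-19a of 39.1% and 34.8%. The part of GC content in these relations was not tested. The 3 miRNAs most like each member by Spearman rho, among those that share no read with it, were miR-362 (0.84), miR-500 (0.74) and miR-425-5p (0.71) for miR-92b-3p, and miR-331-5p (0.83), miR-7134-3p (0.81) and miR-7142-3p (0.76) for miR-92a. They were miR-421-3p (0.69), miR-126-5p (0.68) and miR-144 (0.66) for miR-32, and miR-20b, miR-126-5p (0.57) and miR-132 (0.50) for miR-363. miR-126-5p, an endothelial miRNA, was thus near both of the scarcer members by rho. Its Pearson r was 0.90 with miR-32 but 0.24 with miR-363. The other arm, miR-126-3p, was not among the 3 most similar of either member.

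**Figure D3:**
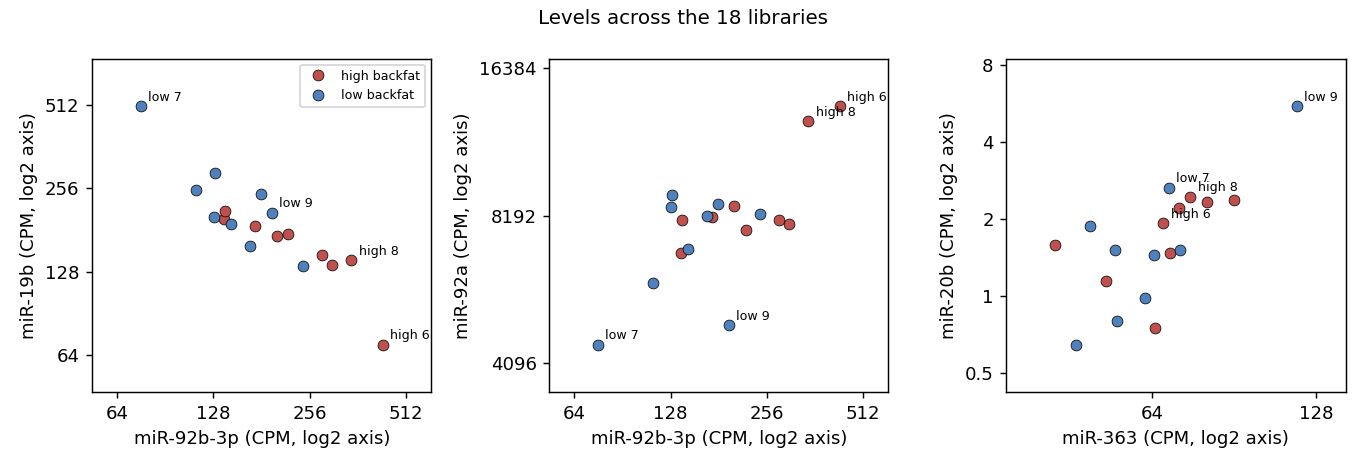
Levels of pairs of miRNAs across the 18 libraries in CPM on log2 axes, with high backfat in red and low backfat in blue. miR-19b is lower where miR-92b-3p is higher, the relation of miR-92a to miR-92b-3p is drawn out by high replicates 6 and 8 and low replicate 7, and miR-363 and miR-20b are both highest in low replicate 9.

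Among the members themselves, 1 of 6 relations passed. miR-92a and miR-92b-3p had a Pearson r of 0.70 (permutation p = 0.0015, adjusted p = 0.009 over 6 relations, reads shared by both left out) and a Spearman rho of 0.42 (adjusted p = 0.252, permutation). Without low replicate 7 and high replicate 6, the libraries farthest from the median, r was 0.40, so the relation rests on those samples. It was 0.46 without high replicates 6 and 8, and 0.93 in the 6 libraries of run U134 to U139, which include those 2 replicates. No other run held 6 libraries. miR-32 and miR-363, close in level, had an r of 0.20 and a rho of 0.48 (adjusted p = 0.436 and 0.252, permutation). The other 4 relations lay between r = −0.47 and 0.31, with adjusted p between 0.227 and 0.436 (permutation).

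Red blood cells are rich in miR-451, miR-144 and miR-486 and also hold miR-92a, so the members were set against these markers, which summed to between 3082 and 6649 CPM in high and between 2603 and 10337 CPM in low libraries. Of 12 relations 3 passed. miR-92a ran against miR-451 (r = −0.70, adjusted p = 0.00942; rho = −0.56, adjusted p = 0.0963, permutation), with r at −0.50 without the 2 farthest libraries and −0.75 within run U134 to U139. That run includes high replicates 6 and 8. miR-92b-3p also ran against miR-451 (r = −0.60, adjusted p = 0.0366; rho = −0.42, adjusted p = 0.324, permutation), with r at −0.29 without the 2 farthest libraries, so that this relation rests on them, and −0.89 within the run. miR-32 ran with miR-144 (r = 0.65, adjusted p = 0.00942; rho = 0.66, adjusted p = 0.0410, permutation), with r at 0.59 without the 2 farthest libraries and 0.84 within the run. None of the 3 passed when each level was taken as a share of all reads without TMM scaling (r = −0.51, −0.45 and 0.55, each with an adjusted p of 0.199, permutation). miR-451 itself did not differ between classes by more than its spread, at 2290 ± 468.2 CPM in high and 2883 ± 2061 CPM in low backfat (edgeR adjusted p = 0.407). miR-144 was likewise lower in high backfat (log2 −0.15 ± 0.26, edgeR adjusted p = 0.749). miR-486 went the other way, at 1928 ± 788.5 CPM in high and 1387 ± 366 CPM in low backfat (log2 0.47 ± 0.21, edgeR adjusted p = 0.169). With miR-486, r was 0.10 for miR-92a and 0.25 for miR-92b-3p. With miR-144 it was −0.46 and −0.33, and none of these relations passed.

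A member is read in several lengths and with changed ends, called forms or isomiRs, and the 4 members differed in which end varied. The forms below are, with the annotated forms, among the most abundant of each member, followed by the main shifted start of miR-363. Letters that are not in the mature sequence at that place are in capitals. Forms with a shifted start are in lower case throughout. The miR-363 form with the later start also lacks the last 2 bases. The miR-32 form with T3A, shown with the substitutions, averaged 1.03 CPM in high and 0.82 CPM in low libraries. The listed miR-32 form with the earlier start averaged 0.62 CPM in high and 0.36 CPM in low libraries.
miR-92a with the annotated ends: tattgcacttgtcccggcctgt
miR-92a with 1 added T: tattgcacttgtcccggcctgtT
miR-92a with added AT: tattgcacttgtcccggcctgtAT
miR-92a with added AA: tattgcacttgtcccggcctgtAA
miR-92a with 1 added A: tattgcacttgtcccggcctgtA
miR-92b-3p shorter by 1 base: tattgcactcgtcccggcctc
miR-92b-3p shorter by 2 bases: tattgcactcgtcccggcct
miR-92b-3p ending in T: tattgcactcgtcccggcctcT
miR-92b-3p with 1 added T: tattgcactcgtcccggcctccT
miR-32 shorter by 1 base: tattgcacattactaagttg
miR-32 with 1 added A: tattgcacattactaagttgcA
miR-32 starting 1 base earlier and shorter by 1 base at the 3′ end: atattgcacattactaagttg
miR-363 shorter by 2 bases: aattgcacggtatccatctgt
miR-363 shorter by 3 bases: aattgcacggtatccatctg
miR-363 ending in T: aattgcacggtatccatctgtaT
miR-363 shorter by 1 base: aattgcacggtatccatctgta
miR-363 starting 1 base later: attgcacggtatccatctgt
The annotated form held 44.4% of reads of miR-92a, 43.2% of miR-92b-3p and 48.2% of miR-32, but 11.4% of miR-363 (means of 18 libraries). The form of miR-363 that is shorter by 2 bases held 46.1% of its pooled reads, and 75.1% of its reads had lost bases at the 3′ end.

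miR-92a mostly gained bases. A longer 3′ end was present in 45.5% of its reads, against 12.8% for miR-92b-3p and 4.06% for miR-32. Ends that no precursor encodes made up 33.7 ± 3.75% of the reads of miR-92a and 29.6 ± 3.905% of those of miR-92b-3p (SD, n = 18), against 7.66 ± 1.42% for miR-363, and no such form of miR-32 was listed. Tails of A alone, T alone and A with T stood on 15.0%, 16.4% and 11.5% of miR-92a reads. The T that follows miR-92a is encoded in the precursor mir-92a-1 alone, so the form with 1 added T, at 11.5% of pooled reads, cannot be told apart from an added T. Forms listed under mir-92a-1 alone made up 19.9 ± 1.38% of miR-92a reads, and forms under mir-92a-2 alone, led by the end shown next, 0.352 ± 0.0577%.
miR-92a with the base that follows it in mir-92a-2: tattgcacttgtcccggcctgtG
The remaining 79.7% fit either precursor. Summaries of tails and precursors were chosen after seeing the data and were not tested.

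The 5′ end, which sets the seed, was nearly fixed in 3 members. A shifted start was present in 11.4% of miR-363 reads, with libraries between 8.05% and 12.7%, against 1.25% for miR-92a, 1.43% for miR-32 and 0.0508% for miR-92b-3p. Most of the shift in miR-363 was a start 1 base later, shown above, which moves the seed to the bases TTGCACG.

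**Figure D4:**
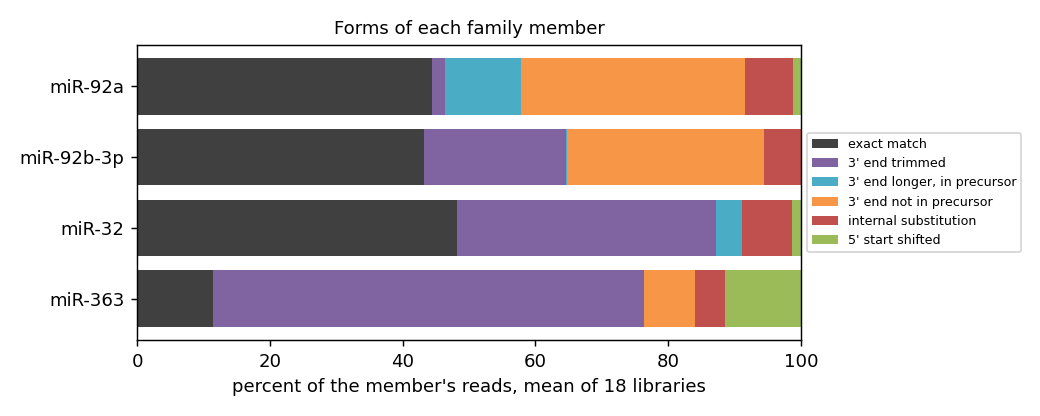
Makeup of each member's reads as the mean percentage over 18 libraries, by kind of form, on an axis from 0 to 100%. Exact matches are near 45% in 3 members and 11.4% in miR-363, whose trimmed forms and shifted starts are the largest of the family.

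Of 25 shares of forms compared between classes, 0 passed after adjustment and 4 had an exact two-sided permutation p under 0.05. A lost 3′ end stood on 77.1 ± 4.04% of miR-363 reads in high and 73.0 ± 2.39% in low libraries (exact p = 0.00901, adjusted p = 0.171). The exact form of miR-363 held 10.24 ± 1.98% in high and 12.5 ± 2.01% in low libraries (exact p = 0.0297, adjusted p = 0.185). A shifted start stood on 1.31 ± 0.0942% of miR-92a reads in high and 1.19 ± 0.0837% in low libraries (exact p = 0.0149, adjusted p = 0.171). Shorter or longer forms made up 19.2 ± 3.203% of miR-92b-3p in high and 24.0 ± 4.41% in low libraries (exact p = 0.0205, adjusted p = 0.171). The ranges of the classes overlapped in each of the 4.

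Single forms were also tested within the whole table, where an entry is 1 sequence under 1 precursor. Of the family's 542 entries 215 passed the low-count filter, and edgeR called 0 of 215 between classes, against 0 of 7330 entries (0%). At an unadjusted p under 0.05 there were 32 of 215 (14.9%), against 643 of 7330 (8.77%). All 25 tested entries of miR-92b-3p had a positive fold change, as had 141 of 170 of miR-92a, 7 of 11 of miR-363 and 6 of 9 of miR-32. Entries of 1 member share libraries and scaling and are not independent. Many miR-92a sequences are entered under both precursors with the same counts, so these counts of entries include some reads more than 1 time. The 170 miR-92a entries hold 101 distinct forms, and the 215 of the family hold 146. The exact form of miR-92b-3p averaged 110.7 ± 66.3 CPM in high and 58.7 ± 18.6 CPM in low libraries (log2 0.91 ± 0.30, edgeR adjusted p = 0.279). The form with 1 added A averaged 9.98 ± 6.64 CPM in high and 4.32 ± 1.89 CPM in low libraries (1.22 ± 0.38, edgeR adjusted p = 0.238).
miR-92b-3p with 1 added A: tattgcactcgtcccggcctccA
DESeq2 called 7 of 243 family entries, where 158 of 8028 (1.97%) were called.

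The lowest p of the family belonged to a miR-92a form with A7G in the seed, shown because its class difference came from 2 libraries.
miR-92a with A7G: tattgcGcttgtcccggcctgt
It averaged 8.74 ± 14.6 CPM in high and 0.535 ± 0.281 CPM in low libraries (log2 4.05 ± 1.02, edgeR adjusted p = 0.130). All lengths with A7G together made up 0.307% of the miR-92a reads in each of high replicates 6 and 8, 0.0768% and 0.0725% in high replicates 1 and 3, and at most 0.0134% in the other 14 libraries. miR-92b-3p held A7G only in high replicates 6 and 8, at 0.233% and 0.196%. Over all libraries A7G was not higher in the family, at 0.0788% of its reads. In the 55 other miRNAs with A at base 7, of which 31 held it, it made up 0.0819%. Another seed substitution of miR-92a, C8G, was also listed only in high replicates 6 and 8, at 0.0609% and 0.0619%. The other miR-92a forms with the lowest p were the form with an added AGA, at 9.41 ± 2.48 CPM in high and 6.01 ± 1.80 CPM in low libraries (edgeR adjusted p = 0.217), and the form with a start 1 base later and 1 further T, at 14.1 ± 6.64 CPM in high and 8.66 ± 2.34 CPM in low libraries (edgeR adjusted p = 0.340).

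Substitutions inside the members were concentrated at bases 2, 3 and 7 of the seed, and their share differed widely between libraries of both classes. Among reads with the annotated start and 1 substitution in bases 1 to 18, the seed held 87.0% of the family's and 67.0% of those of the 221 other miRNAs whose exact form was listed. Base 3 alone held 54.6% in the family and 36.1% in the others. Bases 2 and 7 held 13.0% and 17.1% in the family and 15.8% and 3.79% in the others. The seed bases 4, 5 and 8 held 0.242%, 0.388% and 0.417% in the family, less than bases 13 and 14 outside the seed, at 1.85% and 2.21%. The 5 substitutions A2T, T3A, T3C, T3G and A7C were found in all 4 members. The most common, T3A, is shown in the scarce miR-32.
miR-32 with T3A: taAtgcacattactaagttgc
T3A made up 1.32% of the family's reads, against 1.74% of the reads of the 40 other miRNAs that have T at base 3, of which 25 held it. A7C made up 0.817% against 0.843% in 55 others with A at base 7, of which 44 held it. A2T, T3C and T3G made up 0.683%, 0.552% and 1.01% of the family's reads. In the others with the same base they made up 1.16%, 1.06% and 1.66%, so none of the 5 had a higher share in the family.

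Seed substitutions stood on 13.9% and 13.6% of miR-92a reads in high replicates 1 and 3, and on 1.25% and 1.17% in high replicates 6 and 8. The low libraries ran between 1.61% in low replicate 1 and 11.7% in low replicate 7. miR-92b-3p held 14.8% and 14.4% in high replicates 1 and 3, and 0.744% and 0.649% in high replicates 6 and 8. miR-32 and miR-363 had 19.6% and 16.1% in high replicate 3, and both were listed at 0 in high replicates 6 and 8 and low replicate 1. miR-32 was also listed at 0 in high replicate 4, and miR-363 in high replicate 9. Among their forms the lowest count above 0 was 10 in any library, against 3 for miR-92a and miR-92b-3p, so a form with fewer reads may be listed at 0. The 440 reads of miR-32 in high replicate 6 are few enough for this to matter. In the other miRNAs the share was 6.35% and 6.48% in high replicates 1 and 3 and 1.84% and 1.88% in high replicates 6 and 8. High replicates 1 and 3 were thus near the top, and high replicates 6 and 8 lowest, outside the family too. The mean for the family was 6.45 ± 5.12% in high and 6.27 ± 4.04% in low libraries (SD, n = 9 each). These summaries were chosen after seeing the data and carry no test.

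**Figure D5:**
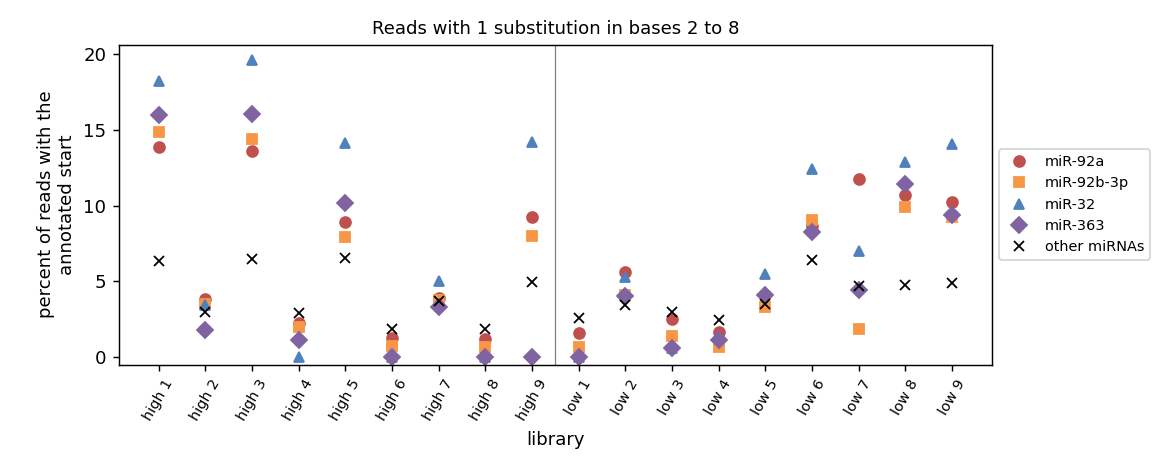
Percentage of reads with the annotated start that carry 1 substitution in bases 2 to 8, for each member and for all other miRNAs, in each library, with high backfat left of low backfat. All 4 members are above 13% in high replicates 1 and 3 and below 1.3%, or listed at 0, in high replicates 6 and 8, and the other miRNAs have a smaller range, 1.84% to 6.51%.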

How the data were processed

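Small RNA was sequenced from the backfat of 18 pigs. Per the labels' protocols, Trizol was used for total RNA, the Illumina TruSeq kit for small RNA gave the libraries, and a GAII read them. The authors deposited raw counts, whole numbers of reads per sequence, precursor and mature miRNA. The deposited normalised table holds signal: dividing it into the raw table gave a constant for each library, between 0.464 and 1.93. Per the submitters' processing notes, the tools were Bowtie 0.12.7, HTSeq and DESeq2 1.4.5 and the build Sscrofa10.2; their roles, trimming and mismatch settings were not given in the sources. Columns were tied to samples by animal number and library code. A further 2 columns match no sample and were not used.

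A sequence listed under several precursors of 1 mature miRNA entered once, with the highest of its counts. edgeR 4.0.16 (quasi-likelihood F test, filterByExpr with a minimum count of 10, TMM, Benjamini-Hochberg, threshold 0.05) was run in R 4.3.3 on all summed miRNAs with class and sex as terms, on 4 cells of sex by class, and on all entries of the table. SE was derived from the F statistic. DESeq2 1.42.0 and limma 3.58.1 (on log2 of the deposited normalised value plus 1) served as alternatives, with age, run, filters, counting and leaving out each library. Shares used exact permutation of 9 against 9 (48620 splits), and order and relations used 100000 resamples (Python 3.11.15, SciPy 1.17.1). Scripts were tested on simulated data. Totals per library run between 9601510 and 34588252 reads, and p-values measure the spread between pigs. The members, marker lists and partners were chosen with earlier results of these data known. Named are the members, the cluster partners, red blood cell markers, the 3 most similar miRNAs per member, the 5 most abundant forms and the 3 forms of lowest p. Other names and forms were chosen after their values were seen. The fits without high replicates 6 and 8 were also chosen after seeing the data. Sequences come from the deposited table.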

Additional observations from a re-analysis of the deposited data

Results flagged for a closer look

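In 58 groups of 9 libraries, the highest or lowest library was compared with its nearest neighbour, and in 7 the gap was more than 0.493 of the group's range. Chance flags about 1 in 20 groups (5%) when values are independent and normal. Some groups here hold shares of the same reads or many values of 0, so the 7 of 58 cannot be set against that rate. miR-32 in high backfat was lowest in high replicate 6 at 17.02 CPM, with the next library at 62.9 CPM. miR-363 in low backfat was highest in low replicate 9 at 118 CPM, with the next at 71.9 CPM. miR-92b-3p had its lowest share of exact reads in high backfat in high replicate 1, at 31.6% against 41.9% in the next, and its highest share with a lost 3′ end in the same library, at 36.6% against 24.96%. Its share with a shifted 5′ end was highest in high replicate 6, at 0.464% against 0.213%, and in low replicate 4 at 0.238%, where the other 8 low libraries were at 0. miR-363 had its lowest share with a shifted 5′ end in high replicate 5, at 8.05% against 11.02%. The causes were not tested.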

How the results depend on the processing

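Between classes, the log2 fold change of miR-92b-3p was positive under all 31 alternatives (0.46 to 0.82) and passed in DESeq2 alone (0.74), and miR-92a was positive under the same 31 (0.15 to 0.45) but differed by −0.21 within run U074 to U077 and −0.085 within run U966 to U969. miR-32 reversed with no low-count filter (0.0048), no sex term (0.0062), age (0.042), run (0.036), all listings summed (0.048) and without high replicates 6 and 8 (0.17). miR-363 reversed with age (−0.045) and was at 0.75 within run U966 to U969. Leaving out 1 library each gave 0.60 to 0.81 for miR-92b-3p, 0.26 to 0.42 for miR-92a, −0.13 to 0.14 for miR-32 and −0.019 to 0.19 for miR-363. Within castrated males the ranges were 0.44 to 0.86, 0.25 to 0.59, −0.10 to 0.12 and −0.29 to 0.16 in that order, within females 0.45 to 0.96, 0.00 to 0.36, −0.32 to 0.24 and 0.11 to 0.31, and for the difference between them −0.32 to 0.27, −0.013 to 0.47, −0.18 to 0.34 and −0.50 to −0.05. Other reversals were miR-32 with age (−0.011) and miR-363 with run (0.065) in castrated males; miR-32 with age (0.11) and without high replicates 6 and 8 (0.27) in females; and, for the difference, miR-32 (−0.12 and −0.20, same settings) and miR-92b-3p with age (0.35). For castrated males against females the ranges were −0.34 to −0.08, −0.24 to −0.05, 0.07 to 0.34 and 0.10 to 0.33. DESeq2 called 7 entries of the family, and edgeR 0 without any 1 library. Over all miRNAs edgeR's 8 calls between classes became 22 with DESeq2, 1 with its size factors, 1 with no filter, and 0 with age, with limma or without run AC485 to AC488, and lay between 0 and 13 with 1 library left out, and its 9 calls in castrated males lay between 2 and 14.

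With exact matches alone miR-32 exceeded miR-363 by 2.09. Without run AC485 to AC488 the high minus low share reversed for miR-92a with a lost 3′ end (0.0048 percentage points), miR-32 shorter or longer (−2.16) and with a lost 3′ end (−0.411), and miR-363 shorter or longer (−0.261) and with 1 mismatch (1.65). Without high replicates 6 and 8 it reversed for miR-92b-3p with a shifted 5′ end (−0.0264) and miR-363 with 1 mismatch (1.03).

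Run U134 to U139 holds high replicates 6 and 8. Within it, r was 0.93 for miR-92a with miR-92b-3p, 0.83 and 0.85 for miR-363 with miR-92a and miR-92b-3p, and −0.40 for miR-32 with miR-363. It was −0.78 and 0.58 for miR-92a with miR-144 and miR-486, −0.89 and −0.85 for miR-92b-3p with miR-451 and miR-144, 0.74 and −0.80 for miR-32 with miR-451 and miR-486, and −0.87 and −0.72 for miR-363 with miR-451 and miR-144. As shares of all reads, miR-363 gave 0.26 with miR-92a and 0.57 with miR-92b-3p, which passed. miR-451 gave −0.51 with miR-92a, −0.45 with miR-92b-3p and −0.017 with miR-32, and miR-144 gave 0.55 with miR-32. Without the 2 farthest libraries miR-32 gave 0.16 with miR-92b-3p and 0.46 with miR-486. Without high replicates 6 and 8 it gave 0.079 with miR-92a, 0.29 with miR-92b-3p and 0.45 with miR-486. The cause was not tested in any case. No paired analysis was made, because each library came from a different pig and no pairs of pigs were given. The labels give no replicate numbers, so those used here were assigned in sample order within each class. Depth limits miR-20b, miR-106a and rare forms most.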
